A study of Homo sapiens with 8 samples.

Results

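The 10 genes described here encode the MYC family of transcription factors and the proteins that share their partner MAX: MYC, MYCN, MYCL, MAX, MXD1, MXD3, MXD4, MNT, MLX and MGA. They are 10 of the 57736 Ensembl gene identifiers listed in each library, and all 10 passed the filter on low values that left 22100 genes to test. The group was chosen by membership of the network, with the doxycycline responses of these same libraries in view. For that reason the values of the 10 genes in doxycycline-treated against untreated cells are given as a description, with standard errors and no p-values. RNA was measured by sequencing in LS174T, an established human colon adenocarcinoma line, in derivatives that carry the Tet repressor and make a short hairpin RNA when doxycycline is added. The 4 groups, with 2 libraries each, were cells of the ASCL2 line with doxycycline, cells of the ASCL2 line without it, cells of the WiNTRLINC1 line with doxycycline and cells of the WiNTRLINC1 line without it. ASCL2 is a transcription factor of intestinal stem cells, and WiNTRLINC1 is a long non-coding RNA that is not analysed here. All groups grew for 3 days, treated cells in doxycycline at 1 ug/ml, and the study asked which transcripts change when either RNA is lost.

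MYC proteins bind DNA only as a pair with MAX, and the pairs recognise the E-box CACGTG near the start sites of genes for growth, ribosome production and metabolism. MXD1, MXD3, MXD4 and MNT pair with MAX at the same sites and recruit SIN3 corepressors, MLX is a second partner that binds MXD1, MXD4 and MNT as well as the glucose-sensing factors MLXIP and MLXIPL, and MGA is a large MAX partner found in a Polycomb complex. In the intestine MYC is known as a target of Wnt signalling and is abundant in dividing crypt cells. MYCN is known from the embryo and from neuroblastoma, and MYCL from lung.

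The groups follow the sample titles. The genotype label of each of the 8 libraries names the other hairpin target than the title does. Levels are given as the deposited value, a whole number of reads scaled between libraries by the authors. ASCL2 had deposited values of 532 and 586 with doxycycline, against 2855 and 3373 without it, in the ASCL2 line. It had 805 and 697 with doxycycline, against 2540 and 2034 without it, in the WiNTRLINC1 line. It was thus lower in treated cells of both lines and does not settle which label is right. Cells that lacked a hairpin but received the drug were not analysed here, so effects of drug and hairpin cannot be told apart. The labels state that the clones of the WiNTRLINC1 line were screened for their knockdown. The 8 markers of colon epithelium summed to between 100089 and 171838 per library, and those of fibroblasts to between 94 and 304, of immune cells to between 34 and 94, of endothelium to between 13 and 33, and of neural crest, where MYCN is best known, to between 13 and 37. KRT8 alone gave between 63926 and 115955 of the epithelial sum, which therefore says little about the other markers. Untreated cells summed to between 153655 and 170413 in the ASCL2 line, against 100089 and 104348 in the WiNTRLINC1 line. Log2 fold changes of the 8 markers with doxycycline ran from -0.756 to 0.422 in ASCL2-line cells and from -0.465 to 0.624 in WiNTRLINC1-line cells. The fibroblast sum was 184 and 193 in treated cells of the ASCL2 line, against 299 and 304 in untreated ones. COL1A1 alone gave 60 and 99 of it in treated cells, against 200 and 222 in untreated ones, and the other 5 markers summed to 124 and 94 in treated cells, against 99 and 82 in untreated ones; their part in the results was not tested.

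In the ASCL2 line both treated libraries lay above both untreated ones for 6 of the 10 network genes (MYC, MYCN, MAX, MXD1, MXD4 and MNT) and below them for 2 (MXD3 and MGA), so that the groups did not overlap for 8 of the 10, beside 60.6% of all tested genes. In the WiNTRLINC1 line the treated libraries lay above for 2 (MYC and MYCN) and below for 4 (MYCL, MXD1, MXD3 and MXD4), so that the groups did not overlap for 6 of the 10, beside 54.8% of all tested genes. The median log2 fold change of the 10 genes was 0.22 in ASCL2-line cells and -0.02 in WiNTRLINC1-line cells, beside 0.01 in each for all tested genes. Because the responses were in view when the genes were chosen, nothing is read from these shares.

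**Figure D1:**
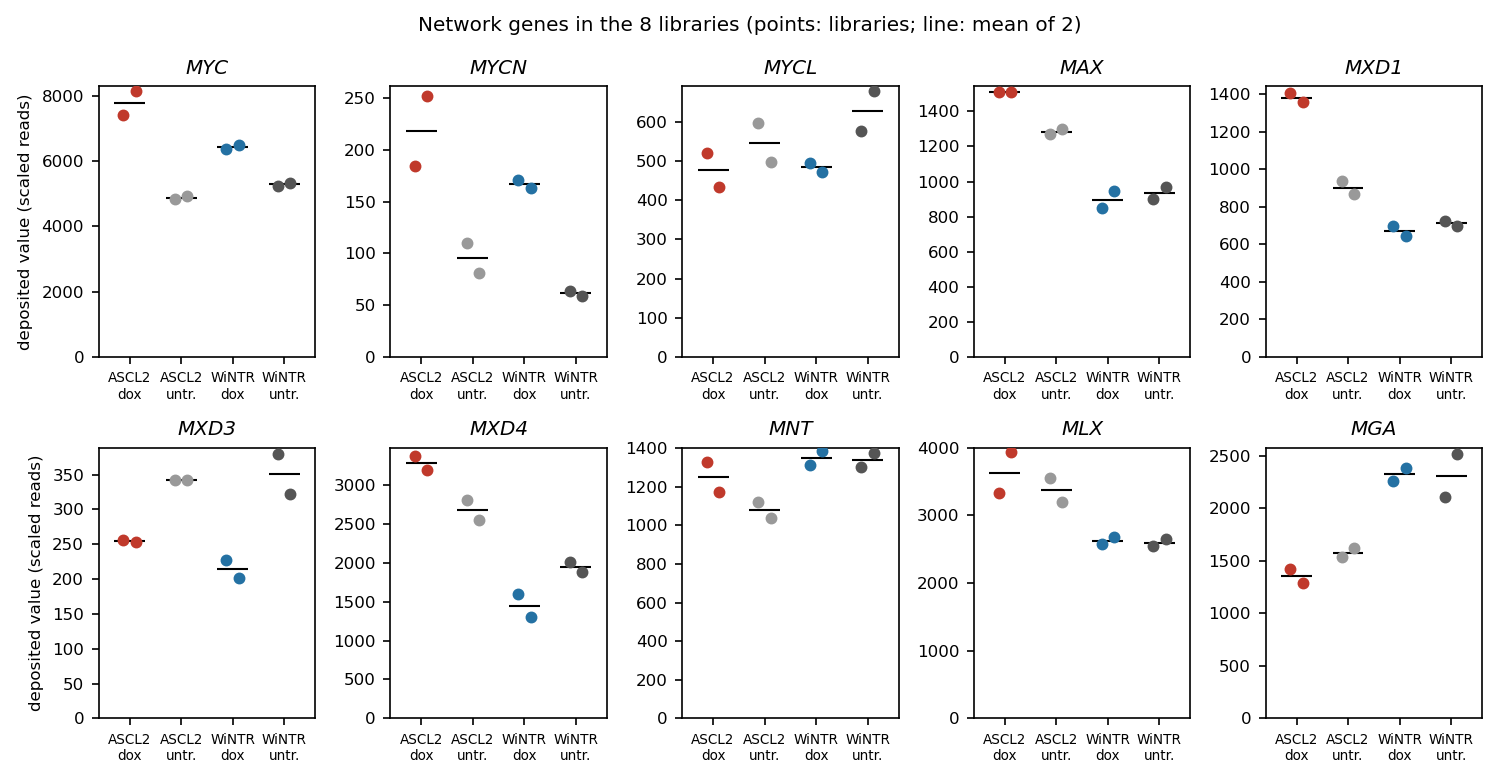
Deposited value (scaled reads, linear axes from 0) of each network gene in every library, with points for libraries and a line for the mean of 2; "untr." is untreated and "WiNTR" the WiNTRLINC1 line. MYC and MYCN lie higher in treated cells of both lines, MXD3 lies lower in both, and MXD1 and MXD4 lie higher with doxycycline in ASCL2-line cells and lower in WiNTRLINC1-line cells.

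MYC (ENSG00000136997, chromosome 8), the family member that drives growth genes in most dividing cells, had deposited values of 7410 and 8135 in treated cells of the ASCL2 line, against 4824 and 4927 in untreated ones. In the WiNTRLINC1 line it had 6371 and 6498 in treated cells, against 5232 and 5333 in untreated ones. Both treated libraries of each line lay above both untreated ones, and the untreated libraries of the 2 lines lay within 509 of each other. The log2 fold change was 0.67 ± 0.07 (SE) in the ASCL2 line, which is 1.59-fold, and 0.28 ± 0.07 in the WiNTRLINC1 line, which is 1.22-fold. The response of the WiNTRLINC1 line minus that of the ASCL2 line was -0.39 ± 0.10, given as a description.

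The transcripts around MYC, like the gene lists further on, were tested over all genes with limma on log2(value + 1), and a gene was called where its Benjamini-Hochberg adjusted p was under 0.05. PVT1, a long non-coding RNA next to MYC, had 286 and 266 in treated cells of the ASCL2 line, against 286 and 299 in untreated ones. It had 928 and 898 in treated cells of the WiNTRLINC1 line, against 623 and 566 in untreated ones. PVT1 rose in the WiNTRLINC1 line (log2 fold change 0.62 ± 0.11, limma adjusted p = 0.000826), gave -0.08 ± 0.11 in the ASCL2 line (adjusted p = 0.618), and the responses differed by 0.70 ± 0.15 (adjusted p = 0.00527). Of the 5 transcripts near MYC that were tested, 0 passed in ASCL2-line cells and 1 in WiNTRLINC1-line cells with limma, where 1 of 5 in each had an unadjusted p under 0.05. POU5F1B, a retrogene related to POU5F1, lay between 25 and 153, CASC8 between 4 and 60, PCAT1 between 2 and 19, and CASC11, which is antisense to the MYC region, between 0 and 10. The use of strand in counting is not given in the sources used here, so reads of CASC11 and MYC where they overlap cannot be told apart.

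MYCN (ENSG00000134323, chromosome 2) had 184 and 252 in treated cells of the ASCL2 line, against 110 and 81 in untreated ones. It had 171 and 163 in treated cells of the WiNTRLINC1 line, against 64 and 59 in untreated ones. The lowest treated library of either line, at 163, lay above the highest untreated library, at 110, so the 4 treated and 4 untreated libraries did not overlap. The log2 fold change was 1.18 ± 0.21 in the ASCL2 line, which is 2.27-fold, and 1.43 ± 0.21 in the WiNTRLINC1 line, which is 2.69-fold. Leaving out 1 library at a time moved it between 0.95 and 1.41 in the ASCL2 line and between 1.37 and 1.49 in the WiNTRLINC1 line, and the responses of the lines differed by 0.25 ± 0.29. Of the 10 genes MYCN had the largest log2 fold change in each line, and the lowest deposited values.

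The 250 bases before the MYCN start site (RefSeq, GRCh38.p14, chr2:15940300-15940549, plus strand) are shown because MYCN was the member with the largest change in both lines. The capitals mark the run where the E2F-type motifs TTTGGCGC on the plus strand and TTTCGCGC on the minus strand overlap, from 176 to 165 bases before the start.
MYCN: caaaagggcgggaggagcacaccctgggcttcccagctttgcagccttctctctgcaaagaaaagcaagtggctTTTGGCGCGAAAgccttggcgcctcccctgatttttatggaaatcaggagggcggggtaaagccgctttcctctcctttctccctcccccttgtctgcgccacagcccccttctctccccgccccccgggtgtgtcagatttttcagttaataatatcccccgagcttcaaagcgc
These motifs were looked for after the sequence had been seen. In the promoter table, which gives 250 bases before to 50 after each start, 0.795% of 27305 genes held TTTGGCGC on either strand, 0.63% held TTTCGCGC, and 7 genes held both in 1 promoter. Among the 9 network genes with a promoter in the table, which does not hold MYC, MYCN and MGA held TTTGGCGC and MYCN held TTTCGCGC. The E-box CACGTG was not among the letters of the MYCN window. These matches describe the letters, not binding.

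The genes on either side of MYCN were described beside it, and none of those tested was called. DDX1, an RNA helicase gene that is often amplified with MYCN in neuroblastoma, had 4319 and 4056 in treated cells of the ASCL2 line, against 3877 and 3921 in untreated ones. DDX1 had 3137 and 3228 in treated cells of the WiNTRLINC1 line, against 2896 and 3182 in untreated ones. Its log2 fold change was 0.10 ± 0.07 (adjusted p = 0.351) in the ASCL2 line and 0.07 ± 0.07 (adjusted p = 0.606) in the WiNTRLINC1 line. NBAS, a gene of vesicle transport, gave -0.11 ± 0.09 in the ASCL2 line (adjusted p = 0.44) and 0.23 ± 0.09 in the WiNTRLINC1 line (adjusted p = 0.107), and CYRIA lay between 4 and 24. Of these 3 neighbours 0 passed in either line with limma, and at an unadjusted p under 0.05 there were 0 in ASCL2-line cells and 1, NBAS, in WiNTRLINC1-line cells. Beside the 26.6% and 18.6% of all tested genes called in the ASCL2 and WiNTRLINC1 lines, 3 genes are too few to read anything from these counts. MYCNOS, the antisense transcript of MYCN, lay between 0 and 8, MYCNUT between 0 and 1 and GACAT3 between 0 and 4, too low to test. Reads of MYCN and MYCNOS where they overlap cannot be told apart, and the values listed for MYCNOS are small beside those of MYCN.

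MYCL (ENSG00000116990, chromosome 1), the third family member, had 522 and 433 in treated cells of the ASCL2 line, against 598 and 497 in untreated ones, and these overlapped. In the WiNTRLINC1 line it had 496 and 472 in treated cells, against 577 and 680 in untreated ones, which did not overlap. The log2 fold change was -0.20 ± 0.13 in ASCL2-line cells and -0.37 ± 0.13 in WiNTRLINC1-line cells. Leaving out 1 library at a time moved it between -0.33 and -0.06 in the ASCL2 line, and between -0.49 and -0.25 in the WiNTRLINC1 line.

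To compare levels between genes, the deposited value was divided by the summed exon length of the gene in kb. That length counts the exons of all annotated transcripts of a gene, so levels are understated where the transcripts made are shorter. Comparisons between genes on this scale are therefore approximate. On this scale MYC made up most of the family RNA: 93.55% ± 0.212 in treated and 91.8% ± 1.27 in untreated cells of the ASCL2 line, and 93.05% ± 0.354 in treated and 92.25% ± 0.495 in untreated cells of the WiNTRLINC1 line (SD, n = 2 each). MYCN made up 3.015% ± 0.474 in treated and 2.075% ± 0.445 in untreated cells of the ASCL2 line, and 2.785% ± 0.12 in treated and 1.24% ± 0.099 in untreated cells of the WiNTRLINC1 line. MYCL made up 3.43% ± 0.665 in treated and 6.11% ± 0.806 in untreated cells of the ASCL2 line, and 4.15% ± 0.184 in treated and 6.5% ± 0.622 in untreated cells of the WiNTRLINC1 line. The larger fold change of MYCN therefore came from a gene whose level stayed far under that of MYC. The summed level of the 3 genes was 2768 ± 177 per kb in treated and 1770 ± 2.26 in untreated cells of the ASCL2 line, and 2304 ± 24.4 per kb in treated and 1908 ± 36.8 in untreated cells of the WiNTRLINC1 line.

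The order of levels per kb began with MYC, MLX, MXD4 and MAX in all 4 groups. At the low end MYCN was the lowest of the 10 genes in the untreated cells of both lines, at 36.7 ± 7.92 per kb in the ASCL2 line and 23.65 ± 1.34 per kb in the WiNTRLINC1 line. In treated cells of both lines MXD3 was the lowest, at 49.4 ± 0.424 per kb in the ASCL2 line and 41.5 ± 3.54 per kb in the WiNTRLINC1 line. Most neighbours in the order did not overlap between libraries. The exceptions were MYCL with MYCN and MYCN with MGA in treated cells of the ASCL2 line, MXD4 with MAX in treated cells of the WiNTRLINC1 line, and MGA with MYCL and MYCL with MXD1 in untreated cells of the WiNTRLINC1 line.

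**Figure D2:**
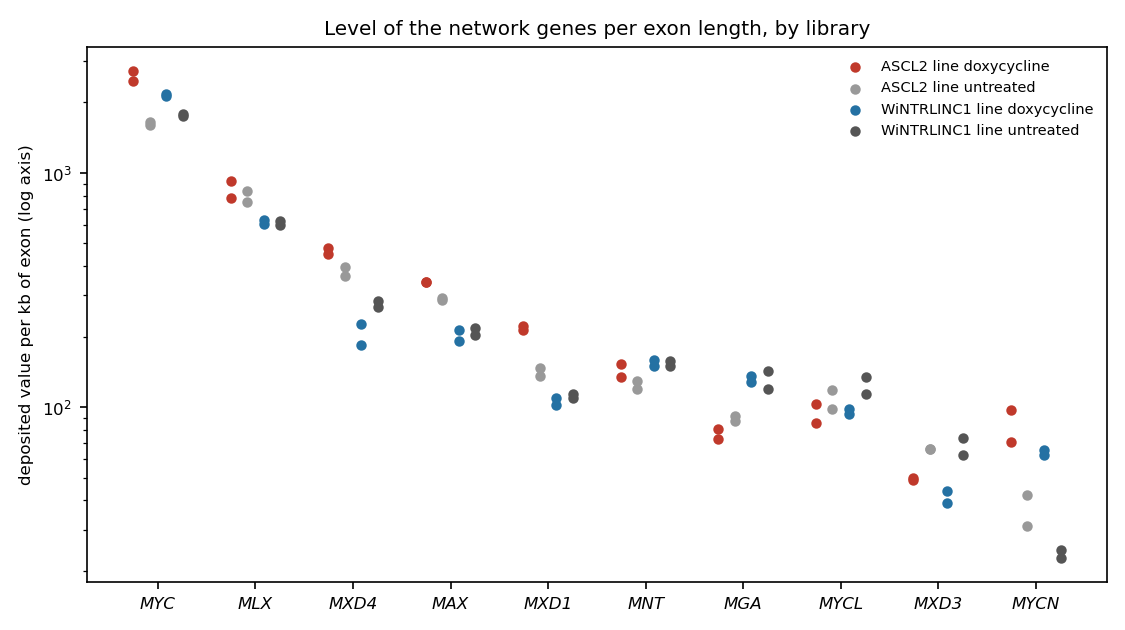
Deposited value per kb of exon (log axis) of the 10 network genes, 1 point per library, with the groups in colours as the legend gives them. MYC lies highest in every library, and MYCN is lowest in the untreated libraries and passes MXD3 in the treated ones.

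MAX (ENSG00000125952, chromosome 14), the shared partner, had 1511 and 1512 in treated cells of the ASCL2 line, against 1269 and 1297 in untreated ones. Treated cells of the WiNTRLINC1 line had 849 and 946, against 898 and 968 in untreated ones, and these overlapped. The log2 fold change was 0.24 ± 0.09 in ASCL2-line cells and -0.06 ± 0.09 in WiNTRLINC1-line cells. MLX (ENSG00000108788, chromosome 17), the parallel partner, overlapped in both lines, with 3331 and 3933 in treated cells against 3546 and 3192 in untreated cells of the ASCL2 line, and 2569 and 2675 in treated cells against 2541 and 2650 in untreated cells of the WiNTRLINC1 line. MGA (ENSG00000174197, chromosome 15) had 1423 and 1293 in treated cells of the ASCL2 line, against 1535 and 1618 in untreated ones, a log2 fold change of -0.22 ± 0.09. It had 2265 and 2388 in treated cells of the WiNTRLINC1 line, against 2105 and 2519 in untreated ones, which overlapped. None of these 3 partners differed by more than 0.24 on the log2 scale in either line, and the sign for MLX in the ASCL2 line, and for MAX, MGA and MLX in the WiNTRLINC1 line, turned when single libraries were left out.

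MXD1 (ENSG00000059728, chromosome 2), a repressor known to rise as cells leave the cycle and differentiate, had 1405 and 1356 in treated cells of the ASCL2 line, against 936 and 866 in untreated ones. WiNTRLINC1-line cells gave 696 and 646 when treated, against 724 and 697 in untreated ones. The treated cells were 1.53-fold higher in ASCL2-line cells (log2 fold change 0.62 ± 0.09), whereas in the WiNTRLINC1 line the groups were separated by a single unit, 696 against 697 (-0.08 ± 0.09). MXD4 (ENSG00000123933, chromosome 4) had the highest mean level per kb among MXD1, MXD3, MXD4 and MNT in every group. Its deposited values were 3379 and 3194 in treated cells of the ASCL2 line, against 2809 and 2553 in untreated ones. It had 1593 and 1302 in treated cells of the WiNTRLINC1 line, against 2009 and 1887 in untreated ones. MXD4 was thus higher with doxycycline in one line and lower in the other, with log2 fold changes of 0.30 ± 0.10 in ASCL2-line cells and -0.43 ± 0.10 in WiNTRLINC1-line cells. Without the second treated library of the WiNTRLINC1 line the value there was -0.29.

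MXD3 (ENSG00000213347, chromosome 5), a repressor known for its expression in S phase, had 256 and 253 in treated cells of the ASCL2 line, against 342 in both untreated libraries. Treated cells of the WiNTRLINC1 line had 227 and 201, against 380 and 322 in untreated ones. It was lower in the treated libraries of both lines without overlap, 1.34-fold in ASCL2-line cells (log2 fold change -0.42 ± 0.13) and 1.64-fold in the WiNTRLINC1 line (-0.71 ± 0.13). MNT (ENSG00000070444, chromosome 17), a repressor present in dividing and resting cells, had 1328 and 1176 in treated cells of the ASCL2 line, against 1123 and 1041 in untreated ones, and 1312 and 1387 in treated cells of the WiNTRLINC1 line, against 1304 and 1377 in untreated ones. Its log2 fold change was 0.21 ± 0.09 in ASCL2-line cells and 0.01 ± 0.09 in WiNTRLINC1-line cells, where the libraries overlapped. Leaving out 1 library at a time moved it between 0.12 and 0.30 in the ASCL2 line, and between -0.03 and 0.05 in the WiNTRLINC1 line.

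**Figure D3:**
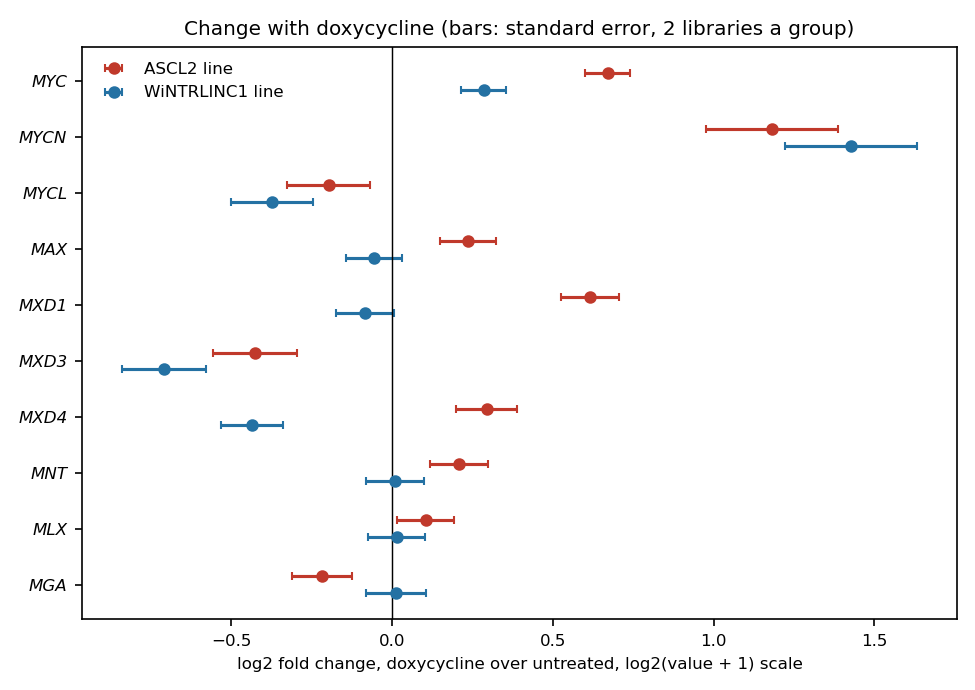
Log2 fold change of doxycycline over untreated, on the log2(value + 1) scale, for the 10 network genes in the ASCL2 line (red) and the WiNTRLINC1 line (blue), with standard errors and 2 libraries a group. MYCN lies farthest right at 1.18 and 1.43, MXD3 lies left of 0 in both lines, and MXD1 and MXD4 lie right of 0 in ASCL2-line cells and left of it in WiNTRLINC1-line cells.

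Summed per kb, the 4 repressors MXD1, MXD3, MXD4 and MNT gave 875.8 ± 36.7 in treated and 712 ± 40.1 in untreated cells of the ASCL2 line, and 506.9 ± 32.2 in treated and 609.6 ± 17.3 in untreated cells of the WiNTRLINC1 line (SD, n = 2 each). The summed level of the MYC family over that of the repressors was 3.165 ± 0.332 in treated and 2.49 ± 0.141 in untreated cells of the ASCL2 line. It was 4.555 ± 0.332 in treated and 3.135 ± 0.148 in untreated cells of the WiNTRLINC1 line. With MXI1, a further repressor of the MXD group described below, the sum was 1170 ± 23.7 in treated and 942.8 ± 30.9 in untreated cells of the ASCL2 line, but 821.1 ± 18.2 in treated and 812.4 ± 17.1 in untreated cells of the WiNTRLINC1 line, so the lower sum of treated cells there depends on leaving MXI1 out. The ratio with MXI1 was 2.368 ± 0.199 in treated and 1.878 ± 0.0639 in untreated cells of the ASCL2 line, and 2.807 ± 0.0921 in treated and 2.35 ± 0.0948 in untreated cells of the WiNTRLINC1 line. Either way the ratio was higher in treated cells of both lines. These sums and ratios were formed after the values had been seen, and they add RNA levels, not proteins.

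Of the 9 network genes with a promoter in the RefSeq table (GRCh38.p14), 3 held the E-box CACGTG, which reads the same on both strands: MXD4, MNT and MLX. The gene without a promoter there was MYC, so its promoter was not searched. Each is shown as 30 bases on the strand of the gene with the E-box in capitals, because this is the site that MYC-MAX and MXD-MAX pairs recognise. The E-box began 238 bases before the start of MXD4 (chr4:2262330-2262359, minus strand), 193 before MNT (chr17:2401236-2401265, minus strand) and 50 before MLX (chr17:42567038-42567067, plus strand).
MXD4: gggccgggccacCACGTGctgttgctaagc
MNT: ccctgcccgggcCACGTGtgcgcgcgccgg
MLX: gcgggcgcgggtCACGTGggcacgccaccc
In the same window CACGTG was held by 8.77% of all 27305 genes of the table, by 14 of 25 genes induced by MYC, by 4 of 19 cofactors and stability regulators and by 1 of 9 genes repressed by MYC. Among the 3 network genes with an E-box, MXD4 differed in opposite directions between the lines while MLX overlapped in both and MNT in the WiNTRLINC1 line.

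The untreated lines were compared with each other as well, a contrast that shares the untreated libraries with those above. The members were chosen with earlier results of these data known. The adjusted p-values of this contrast are therefore given as a description and are not independent support. In untreated cells of the WiNTRLINC1 line, set against untreated cells of the ASCL2 line, 2 of the 10 network genes were higher and 5 lower, where 55.2% of all tested genes differed. MGA was higher, by 1.46-fold (log2 0.55 ± 0.09, limma adjusted p = 0.000153), and MNT by 1.24-fold (0.31 ± 0.09, adjusted p = 0.00847). MAX was lower by 1.38-fold (-0.46 ± 0.09, adjusted p = 0.00039), MXD4 by 1.38-fold (-0.46 ± 0.10, adjusted p = 0.000825) and MXD1 by 1.27-fold (-0.34 ± 0.09, adjusted p = 0.00473). MLX was lower as well (-0.38 ± 0.09, adjusted p = 0.00209). MYCN was lower by 1.53-fold (-0.61 ± 0.21, adjusted p = 0.0207), a call that did not hold without untreated library 1 of the ASCL2 line (adjusted p = 0.191) or untreated library 2 of the WiNTRLINC1 line (adjusted p = 0.0926). The MNT call did not hold without untreated library 2 of the ASCL2 line (adjusted p = 0.0661) or of the WiNTRLINC1 line (adjusted p = 0.0588). MYC gave 0.12 ± 0.07 (adjusted p = 0.18), MYCL 0.20 ± 0.13 (adjusted p = 0.202) and MXD3 0.03 ± 0.13 (adjusted p = 0.85). Differences between the untreated lines were this common across the genome, so nothing particular to the network is read from the count.

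Of 3 further network genes, MXI1, a repressor of the MXD group, rose in both lines: it had 1313 and 1398 in treated cells against 1033 and 1093 in untreated cells of the ASCL2 line, and 1402 and 1493 in treated cells against 934 and 935 in untreated cells of the WiNTRLINC1 line. Its log2 fold change was 0.35 ± 0.08 in the ASCL2 line (limma adjusted p = 0.00604, or 0.0687 without the second treated library of that line) and 0.63 ± 0.08 in the WiNTRLINC1 line (adjusted p = 8.54e-05). MLXIPL, the glucose-responsive partner of MLX, fell in the WiNTRLINC1 line to 512 and 449 in treated cells, against 891 and 807 in untreated ones (-0.82 ± 0.12, adjusted p = 0.000241), and gave 0.08 ± 0.12 in the ASCL2 line (adjusted p = 0.688). MLXIP passed in neither line (adjusted p = 0.206 in ASCL2-line cells and 0.129 in WiNTRLINC1-line cells). In untreated cells of the WiNTRLINC1 line MLXIP had 5791 and 6049, against 1683 and 1754 in untreated cells of the ASCL2 line (log2 1.78 ± 0.07, adjusted p = 6.4e-11).

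Among 25 cofactors bound by MYC and regulators of its stability, 2 rose and 7 fell in ASCL2-line cells and 16 did not pass, where 13.9% of all tested genes were called higher and 12.7% lower. The median log2 fold change was -0.12, beside 0.01 for all tested genes. WDR5, a chromatin adaptor, fell by 0.66 on the log2 scale (adjusted p = 0.000137), AURKA, a kinase that stabilises MYCN, by 0.41 (adjusted p = 0.00186) and TRRAP, a scaffold of histone acetyltransferases, by 0.27 (adjusted p = 0.0127, or 0.0668 and 0.0979 without the second untreated or the second treated library of the line). With doxycycline in WiNTRLINC1-line cells 1 rose and 5 fell and 19 did not pass, where 9.54% of all tested genes were called higher and 9.03% lower. The median there was -0.05, and the 6 of 25 called lie near the 18.6% of all tested genes called in either direction. USP28, a deubiquitinase of MYC, fell to 384 and 430 in treated cells, against 1005 and 1124 in untreated ones (log2 fold change -1.39 ± 0.10, adjusted p = 2.11e-07). SKP2, an F-box protein that marks MYC and CDKN1B for breakdown, fell to 885 and 878 in treated cells, against 2263 and 2158 in untreated ones (-1.32 ± 0.08, adjusted p = 6.04e-08). ZBTB17, also called MIZ1, through which MYC represses genes, fell by 0.64 (adjusted p = 0.000173). In the ASCL2 line SKP2 gave -0.20 (adjusted p = 0.071), ZBTB17 -0.20 (adjusted p = 0.13) and USP28 -0.115 (adjusted p = 0.422). In the WiNTRLINC1 line TRRAP gave -0.15 (adjusted p = 0.168), AURKA -0.14 (adjusted p = 0.293) and WDR5 -0.06 (adjusted p = 0.749). These had the same direction in both lines but passed in only 1. The count for the ASCL2 line was 5 in all without its second untreated library and 3 without its second treated library.

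Of the 29 tested genes known to be induced by MYC, 8 rose and 5 fell in ASCL2-line cells and 16 did not pass (median 0.01), while 5 rose and 4 fell in WiNTRLINC1-line cells and 20 did not pass (median 0.04). The shares of all tested genes were 13.9% higher and 12.7% lower in the ASCL2 line, and 9.54% higher and 9.03% lower in the WiNTRLINC1 line. SRM, the spermidine synthase of the polyamine pathway, had 2288 and 2506 in treated cells against 1343 and 1243 in untreated cells of the ASCL2 line, and 3668 and 3139 in treated cells against 1986 and 1469 in untreated cells of the WiNTRLINC1 line. It rose by 0.89 ± 0.12 (adjusted p = 7.19e-05) in the ASCL2 line and by 0.99 ± 0.12 (adjusted p = 3.72e-05) in the WiNTRLINC1 line. In the ASCL2 line ODC1, the first enzyme of that pathway, rose by 0.56 (adjusted p = 3.15e-05), the mitochondrial chaperone HSPD1 by 0.48 (adjusted p = 0.000338) and the nucleolar helicase DDX21 by 0.47 (adjusted p = 0.000862). HSPD1 also rose in the WiNTRLINC1 line, by 0.35 (adjusted p = 0.00542). ODC1 gave 0.20 in that line (adjusted p = 0.0556) and DDX21 gave 0.20 (adjusted p = 0.119), the same direction without passing. In the WiNTRLINC1 line NME1, a nucleoside diphosphate kinase, rose by 0.56 (adjusted p = 0.00307, or 0.0546 and 0.058 without the first untreated or the second treated library of the line). There RCC1, a guanine nucleotide exchange factor of RAN, fell by 0.42 (adjusted p = 0.00057), and it also fell in the ASCL2 line, by 0.335 (adjusted p = 0.00242). CDK4, a kinase of the G1 phase, fell by 0.39 in the WiNTRLINC1 line (adjusted p = 0.00375, or 0.0895 without the mean-variance trend). The log2 fold change of CDK4 there was -0.343 without the first treated library. CDK4 gave -0.17 in the ASCL2 line (adjusted p = 0.149) and NME1 gave 0.16 in that line (adjusted p = 0.353). HSPD1 has pseudogene copies, NME1 shares reads with the NME1-NME2 readthrough and RCC1 overlaps SNHG3, so their values are uncertain. The count in the ASCL2 line was 8 without its second untreated and 7 without its second treated library, and in the WiNTRLINC1 line it was 4, 5 and 3 without its first untreated, first treated and second treated library.

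Of 12 genes known to be repressed by MYC, 6 rose and 1 fell in ASCL2-line cells and 5 did not pass, beside 13.9% of all tested genes called higher and 12.7% lower, with a median log2 fold change of 0.41. Among the same genes in WiNTRLINC1-line cells 2 rose and 1 fell and 9 did not pass, beside 9.54% of all tested genes called higher and 9.03% lower, with a median of 0.08; the 3 of 12 called lie near the 18.6% called in either direction. CDKN1A, the cell cycle inhibitor p21, had 10163 and 11586 in treated cells of the ASCL2 line, against 5866 and 5204 in untreated ones (0.97 ± 0.09, adjusted p = 1.22e-06), and 4890 and 4863 in treated cells of the WiNTRLINC1 line, against 5476 and 4952 in untreated ones (-0.10 ± 0.09, adjusted p = 0.515). CDKN1B, the inhibitor p27, rose by 0.53 in the ASCL2 line (adjusted p = 0.000171) and fell by 0.29 in the WiNTRLINC1 line (adjusted p = 0.0174), the second call being lost without the second untreated library (adjusted p = 0.137), the first treated (0.0962) or the second treated one (0.073). CDKN2B, the inhibitor p15, rose in the ASCL2 line to 453 and 613 in treated cells, against 174 and 201 in untreated ones (1.49 ± 0.25, adjusted p = 0.000472). NDRG1, a gene of stress and differentiation, rose by 1.15 in the ASCL2 line (adjusted p = 1.55e-06) and by 0.61 in the WiNTRLINC1 line (adjusted p = 0.000711). GADD45A, a stress gene, rose by 0.58 in the ASCL2 line (adjusted p = 0.00098) and by 0.43 in the WiNTRLINC1 line (adjusted p = 0.0111, or 0.0583 without the mean-variance trend). In the WiNTRLINC1 line its log2 fold change was 0.39 without the first untreated library and 0.335 without the second treated one. The count of 3 in that line was 0 without the mean-variance trend.

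**Figure D4:**
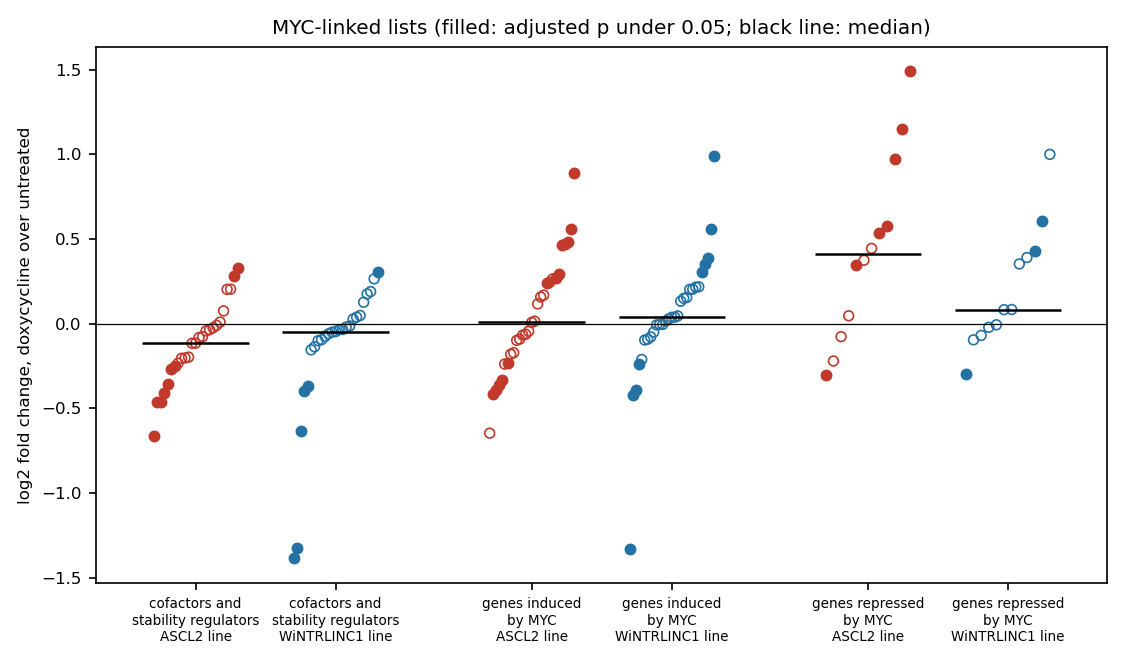
Log2 fold change of doxycycline over untreated for the tested genes of 3 lists linked to MYC, in the ASCL2 line (red) and the WiNTRLINC1 line (blue); filled points have an adjusted p under 0.05 and black lines are medians. Cofactors reach down to -1.39 in the WiNTRLINC1 line, induced genes spread on both sides of 0, and the repressed genes have the highest median, 0.41, in the ASCL2 line.

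Over the 8 libraries the tested genes whose log2 values were most like those of MYC, among 12558 candidates with a mean of at least 100, were LDLRAD3 (Pearson r = 0.998), TVP23C (0.988), SRMS (0.986), VWA8 (0.985) and TSPAN9 (0.984). LDLRAD3, a receptor-type membrane protein gene, had 577 and 672 in treated and 356 and 370 in untreated cells of the ASCL2 line, and 491 and 503 in treated and 384 and 404 in untreated cells of the WiNTRLINC1 line. The genes most like MYCN were NCS1 (0.986), FSTL3 (0.984), GLG1 (0.983), SMAGP (0.979) and EFNB2 (0.978). FSTL3, an inhibitor of activins, had 557 and 664 in treated and 385 and 382 in untreated cells of the ASCL2 line, and 581 and 526 in treated and 289 and 272 in untreated cells of the WiNTRLINC1 line. These r describe 8 libraries that fall into 4 groups, and with so many candidates values near 1 are found for many genes.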

How the data were processed

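RNA of 8 LS174T libraries was sequenced on the Ion Proton after fragmentation with RNase III, per the labels' protocols. The tools named by the submitters' processing notes are TopHat2 2.0.9, Cufflinks, DESeq and cutadapt, and the builds GRCh37, hg19 and mm9 appear there with no role; which program counted the reads, and whether by strand, is not given in the sources used here. Each deposited score is a whole number that behaves as a scaled read count: in 3 libraries some whole numbers under 40 never occur. Raw counts could not be recovered for every library, so no count test was run. Deposited totals were 21524463 to 22941231, and counting precision before scaling is unknown. Replicate libraries differed beyond counting noise (chi-square per degree of freedom 4.63 to 6.73). The labels do not say that replicates were separate cultures, so p-values cover only the spread between these libraries, possibly technical.

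The 22100 genes that reached a value of 10 in 2 or more libraries were fitted on log2(value + 1) by limma 3.58.1 under R 4.3.3, using a mean-variance trend and all 8 libraries and 4 groups together, without covariates (4 residual and 10.5 prior degrees of freedom). Fold changes on this scale understate changes of low genes. Adjusted p-values are Benjamini-Hochberg over all tested genes, and called means under 0.05. Self-tests on simulated data were run before the fit. Fewer cells expressing a gene and less RNA per cell cannot be told apart in these bulk samples. Identifiers were matched to symbols through the gene name table (39501 of 57736); lengths and chromosomes are from GENCODE 29, used without coordinates. BOP1, PECAM1, CCAT1 and the older name FAM49A (CYRIA) matched no listed identifier and are not analysed here.

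The members and the gene lists were chosen with earlier results of these data known. Named genes were all members, up to 4 called genes of each list per doxycycline comparison by smallest adjusted p, the measured neighbours of MYC and MYCN, and the 5 genes most like each; MLXIP, the third gene of its list, is named beside them, and 1 gene that the rule names is not reported here. Alternatives were the pseudocount, the filter, the scaling, the trend, a replicate block, each line alone and leaving out each library.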

Additional observations from a re-analysis of the deposited data

Results flagged for a closer look

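Several genes responded differently to doxycycline in the 2 lines. Each difference is the log2 response of the WiNTRLINC1 line minus that of the ASCL2 line. For the network genes it was -0.70 for MXD1 and -0.73 for MXD4, where both treated libraries lay below both untreated ones in the WiNTRLINC1 line and above them in the ASCL2 line; these 2 differences were not tested. For MXD1 the separation in the WiNTRLINC1 line was a single unit.

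For other genes the difference itself was tested with limma, and 15% of all 22100 tested genes were called for it. The genes given here were named for a small adjusted p in a doxycycline comparison of the same libraries, which favours a large difference. Their calls are therefore a description and are not set against that share. Over whole lists the difference was called for 5 of 25 cofactors and stability regulators, 3 of 29 induced genes and 4 of 12 repressed genes. The response was lower in the WiNTRLINC1 line for MLXIPL (-0.90, adjusted p = 0.00228), SKP2 (-1.12, adjusted p = 9.97e-06), USP28 (-1.27, adjusted p = 1.74e-05), ZBTB17 (-0.44, adjusted p = 0.032) and ODC1 (-0.36, adjusted p = 0.0214). It was also lower there for the repressed genes CDKN1A (-1.07, adjusted p = 2.76e-05), NDRG1 (-0.54, adjusted p = 0.0197), CDKN1B (-0.83, adjusted p = 0.000137) and CDKN2B (-1.10, adjusted p = 0.0496). CDKN2B had low values in the WiNTRLINC1 line, between 23 and 45. The response was higher in the WiNTRLINC1 line for WDR5 (0.60, adjusted p = 0.00699) and PVT1 (0.70, adjusted p = 0.00527).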

How the results depend on the processing

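The doxycycline log2 fold changes of MYC, MYCN, MXD1, MXD3 and MXD4 kept their sign under the alternatives run in each line. Only the pseudocount, the scaling and leaving out a library of the same line could move these values. The filter, the trend, the replicate block, a line fitted alone and libraries left out of the other line could not. In the untreated contrast MXD3, at 0.03, was -0.09 without untreated library 1 of the WiNTRLINC1 line. Leaving out 1 library at a time gave 0.60 to 0.74 for MYC in the ASCL2 line, 0.27 to 0.30 for MYC in the WiNTRLINC1 line, 0.95 to 1.41 for MYCN in the ASCL2 line and 1.37 to 1.49 for MYCN in the WiNTRLINC1 line. MYCN in the WiNTRLINC1 line was 1.31 with a pseudocount of 10. Without the mean-variance trend, fewer genes were called: 3410 against 5884 in ASCL2-line cells and 1873 against 4104 in WiNTRLINC1-line cells. Among cofactors 3 and 3 were then called in the ASCL2 and WiNTRLINC1 lines, among induced genes 5 and 2, and among repressed genes in the WiNTRLINC1 line 0. With no filter on low values, 2395 genes were called in the WiNTRLINC1 line, and 4 cofactors (ASCL2 line), 8 induced genes (ASCL2 line) and 4 induced genes (WiNTRLINC1 line). Without 1 library at a time, the called genes ran from 3665 to 5862 in ASCL2-line cells and from 2398 to 4131 in WiNTRLINC1-line cells, lowest without the second treated library of the line. Over the same settings cofactors ran from 3 to 9 in the ASCL2 line, induced genes from 7 to 13 in ASCL2-line cells and from 3 to 9 in WiNTRLINC1-line cells, and repressed genes from 1 to 3 in the WiNTRLINC1 line. Where a setting leaves a group with 1 library, that library is assumed to vary like the other groups. In the untreated contrast 5 to 7 network genes were called; MYCN lost its call with no filter (adjusted p = 0.0712), with quantile normalization (0.0942) and without the trend (0.054), and MNT without the trend (0.0506). The cause was not tested.

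The differences between replicates correlated at -0.05 in ASCL2-line cells and 0.10 in WiNTRLINC1-line cells between treated and untreated cells. These values cannot show whether same-numbered libraries were paired or processed together. With the replicate number within line as a block, 6148 genes were called in ASCL2-line cells and 4298 in WiNTRLINC1-line cells. The log2 fold changes of MYC (0.67 and 0.28) and MYCN (1.18 and 1.43) could not move, because each group holds both replicate numbers.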
